A study of Mus musculus with 6 samples.

Results

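ET-3 and NT, the peptides endothelin-3 and neurotensin, were compared directly in cultured muscle stem cells (MuSCs) over the genes with enough reads to be measured well. The comparison sets the 2 NT libraries against the 2 ET-3 libraries. A gene entered it when its mean value over these 4 libraries was at least 50, and 9845 of the 18943 genes in the table did, 9708 of them protein coding. The mean was taken over both ligands together, so the choice of genes did not use the difference between them. At the limit, Aamdc and Angpt2 entered with means of 50, and Tmem62 and Slc2a4rg-ps, with means of 49.8, did not.

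The study asked which ligands of G protein-coupled receptors hold MuSCs in quiescence, and RNA-seq was performed on cells treated with each ligand. All 6 libraries came from MuSCs of wild-type C57BL/6 mice, 8 weeks old, kept in culture for 5 days. The groups were DMSO, the solvent control (2 libraries), ET-3 (2 libraries) and NT (2 libraries). The sample labels give 100 nM for ET-3 and for NT, whereas the methods of the study give higher doses that differ between the ligands, so whether the doses were matched is not known. Nothing in the labels says that the 2 libraries of a group came from separate cultures or animals, and p-values measure only the spread between these libraries. A figure legend of the study gives more biological samples per group for its RNA-seq than the 2 libraries present here.

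ET-3 is a small peptide of the endothelin family that acts mainly through the receptor ETB, and NT is a short peptide of nerve and gut whose receptors include NTS2. Both receptors are G protein-coupled, and the study places the G proteins G12 and G13, the GTPase RhoA and its kinase ROCK downstream of them. MuSCs express PAX7 when quiescent, add MYOD1 when activated, and switch on MYOG, actin and myosin genes of the sarcomere when they differentiate.

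Library totals ranged from 4214458 to 4600575. They behave as read counts multiplied by a factor for each library and rounded, with factors of 1.19 and 1.09 under ET-3 and 0.855 and 0.781 under NT, as estimated from which whole numbers occur. The reads on genes that this implies were 3628952 and 3931934 under ET-3 and 4986598 and 5396233 under NT, so that NT had 1.37 times the reads of ET-3. In reads recovered with these factors, the 2 ET-3 libraries differed by less than the sampling noise, with a mean chi-square of 0.849 per member, as did the 2 NT libraries, with 0.897. The DMSO pair gave 1.51, and pairs of an ET-3 and an NT library gave 1.70 to 3.31. Each treated pair was therefore also counted as 1 sample, and the result of that fit stands beside the main count. Only the DMSO pair was left to give the spread in that fit, so its intervals and p-values measure the spread within DMSO.

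Differences between the ligands were small in most members. Over the members, the difference between NT and ET-3 (mean log2(value + 1) of NT minus that of ET-3) had a median of 0.02 and ran from -0.67 to 0.86, and 0 members differed by 2-fold. A difference of at most 0.25 on the log2 scale was seen in 8819 members (89.6%), and 12 members differed by 1.5-fold or more. The 95% interval of limma lay wholly within 2-fold for 9815 members (99.7%) and within 1.5-fold for 9199 (93.4%). With each treated pair counted as 1 sample, these counts were 9030 and 6565. The median absolute difference between single libraries was 0.07 within ET-3, 0.07 within NT and 0.09 to 0.13 across the ligands. Between group means it was 0.10 for the ligands, and DMSO lay 0.33 from ET-3 and 0.32 from NT by the same measure.

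**Figure D1:**
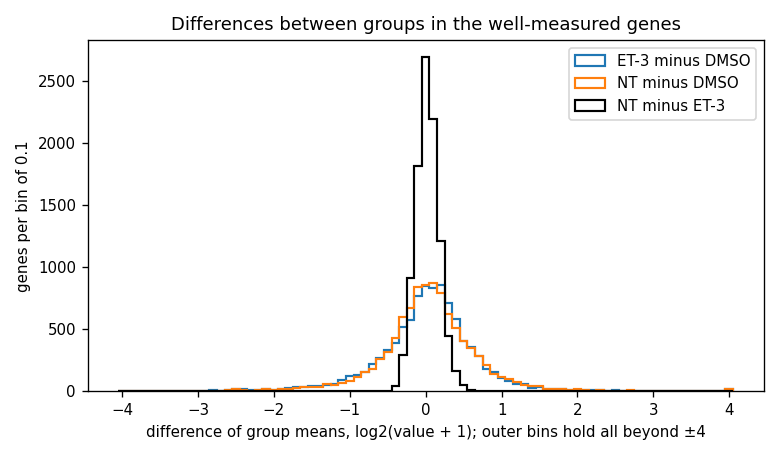
Differences of group means in the 9845 members, as the number of genes (vertical axis) per bin of 0.1 on the log2(value + 1) scale (horizontal axis). The black line, NT minus ET-3, runs from -0.67 to 0.86, and the blue and orange lines, each ligand minus DMSO, are wider and share the DMSO libraries.

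When limma's test was adjusted by Benjamini-Hochberg over the 13921 tested genes, 361 members had an adjusted p of at most 0.05, and these are termed called. NT was higher than ET-3 in 81 of them and lower in 280, that is, 0.823% and 2.84% of the members, where the shares over all tested genes were 0.647% and 2.05%. The smallest adjusted p was 0.0379, so every call lay close to the threshold. In 4 of the called members the difference reached 1.5-fold. With each treated pair counted as 1 sample, 0 members were called and 417 had an unadjusted p under 0.05 in limma, and 0 were called when any of the 6 libraries was left out, with 1182 to 2503 at an unadjusted p under 0.05. The split by direction also depended on the scaling between libraries. Scaled to the library total, 156 members were called higher and 269 lower. Scaled on the members under 0.03 reads per exonic base, which was tried after the data were seen, 27 were called higher and 1774 lower, and the median difference of all members moved from 0.02 to -0.11. Likewise 0 were called with the 4 treated libraries only and with no filter on low values. All calls below therefore rest on taking the 2 libraries of a ligand as independent, on including DMSO in the fit and on the filter. The values in each library are given so that their size can be read without the test.

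Both ligands changed the members against DMSO far more than they differed from each other. Over all tested genes, 63.7% were called between ET-3 and DMSO and 62.2% between NT and DMSO in the same limma fit. These comparisons share the DMSO libraries. The members changed under both ligands on the same side of DMSO numbered 5786, and 14 lay on opposite sides. Of the 81 members called higher under NT, 54 had a DMSO mean above both ligand means, 17 below both and 10 between them. Of the 280 called lower under NT, 45 had a DMSO mean above both, 97 below both and 138 between them. The shares over all members were not counted, so these counts are not read as particular to the called members.

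The calls followed how densely a gene was covered by reads. Coverage is given here as reads per exonic base, the mean reads of the 4 treated libraries divided by the length of the gene's merged exons. The median difference between NT and ET-3 was 0.20 in 210 members under 0.01 reads per base, 0.14 in 1617 members from 0.01 to 0.03, 0.06 in 4621 members from 0.03 to 0.1, -0.07 in 3088 members from 0.1 to 0.3, and -0.24 in 309 members at 0.3 or more. In the last group NT was lower in every member, and 145 of the 309 were called. None of the 1827 members under 0.03 was called lower under NT, and 27 were called higher. The 81 members called higher had a median coverage of 0.0371 and a median exonic length of 11321 bases, and the 280 called lower had 0.310 and 3146 bases, beside 0.0704 and 4814 bases over all members.

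**Figure D2:**
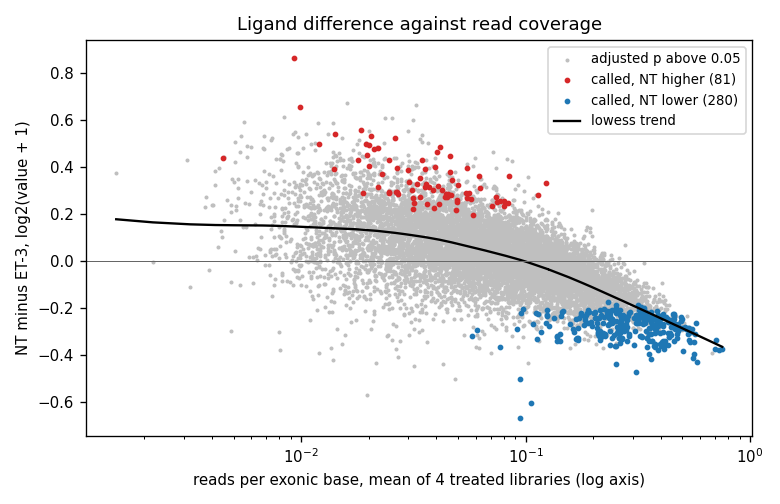
Difference between NT and ET-3 (vertical axis, log2(value + 1)) against reads per exonic base (horizontal axis, log scale) for each member. Members called higher under NT (red, 81) lie at low coverage and those called lower (blue, 280) at high coverage, along the lowess trend (black).

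A slope against coverage also appeared between libraries that had the same treatment, downward in the ET-3 and NT pairs and upward in the DMSO pair. In the members at 0.3 or more reads per base, the median difference of library 2 minus library 1 was 0.09 in DMSO, -0.08 in ET-3 and -0.07 in NT, in the direction of the factors of those libraries (0.22, -0.12 and -0.13 on the log2 scale). Under 0.01 reads per base the same differences were -0.03, 0.07 and 0.05. Between the ligands the factors differed by -0.48, so factor and ligand cannot be told apart here, and the part of the factors was not tested. The reads themselves were 0.24 higher under NT on the log2 scale at the median of the most densely covered members and 0.68 higher in the least covered ones, beside 0.46 for the libraries as wholes. Rplp1, a protein of the ribosomal stalk with 0.579 reads per base, had values of 344 and 305 under ET-3 and 250 and 230 under NT, and 273 and 312 in DMSO, whose second library has the larger factor. With the lowess trend against coverage subtracted from the treated libraries, 0 members were called and 1167 had an unadjusted p under 0.05 in limma. The difference left after this subtraction is called the trend-corrected difference below. The trend was fitted to the differences between NT and ET-3 themselves. An effect of the ligand that went with coverage would be subtracted with it, so the correction does not separate ligand from factor. Merged exons can be longer than the transcript expressed, and the trend subtracted is then that of too low a coverage.

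**Figure D3:**
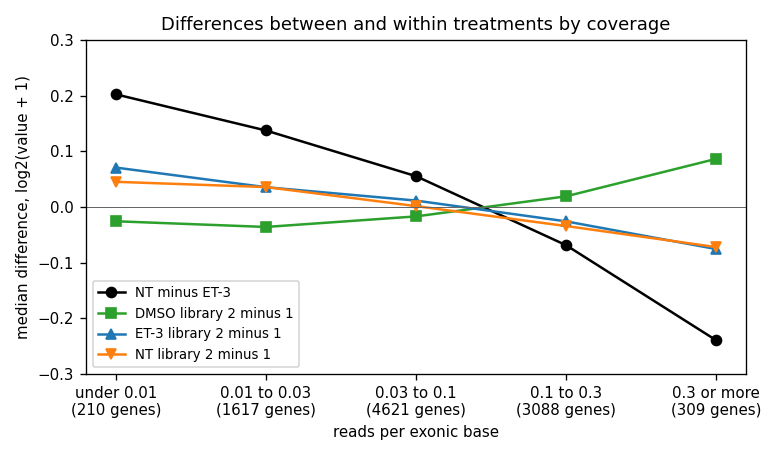
Median difference (vertical axis, log2(value + 1)) in 5 classes of coverage (horizontal axis, with the number of members) for NT minus ET-3 and for library 2 minus library 1 within each treatment. NT minus ET-3 falls from 0.20 to -0.24, and the ET-3 and NT pairs fall in the same order while the DMSO pair rises.

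Genes of cholesterol and fatty acid synthesis were the pathway list with the highest median difference toward NT, and they did not lie at an extreme of coverage. Sterols are made from acetyl-CoA through mevalonate, and the genes of the pathway are switched on together by SREBP2 when cell sterol is low. Of the 33 members of the list (of 37 genes), 28 were higher under NT. In the list 5 were called higher and 0 lower, beside 0.823% and 2.84% of all members. The median difference was 0.15 beside 0.02 over all members. Both NT libraries lay above both ET-3 libraries in 21 of the 33, where 30.4% of all members did. The median coverage of the list was 0.0962, and the median of the trend-corrected difference was 0.14, with 30 of 33 above 0.

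The largest of these differences was in Stard4, a carrier of cholesterol between membranes, with values of 192 and 167 under ET-3, 261 and 241 under NT and 237 and 242 in DMSO. Its difference between NT and ET-3 was 0.48 ± 0.087 (SE; limma adjusted p = 0.0379). NT thus lay at the level of DMSO and ET-3 below it. Msmo1, a methyl sterol oxidase (chr8:64718139-64733792 in GRCm38), had 223 and 238 under ET-3, 309 and 290 under NT and 339 and 337 in DMSO, a difference of 0.38 ± 0.067. Hmgcs1, which makes HMG-CoA (chr13:119690379-119708260), had 443 and 444 under ET-3, 547 and 531 under NT and 669 and 709 in DMSO, a difference of 0.28 ± 0.051. In both genes the NT values lay between those of ET-3 and DMSO.

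Fads2, a desaturase of long fatty acids (chr19:10062765-10101746), had 346 and 327 under ET-3, 436 and 411 under NT and 412 and 391 in DMSO. In each of these 4 genes, as in all 81 members called higher, both NT libraries lay above both ET-3 libraries. The limma adjusted p was 0.0379 in each of the 4. With each treated pair counted as 1 sample, or with the trend against coverage subtracted, 0 of the 33 were called, and 5 and 18 had an unadjusted p under 0.05, each with NT higher. With the libraries scaled on thinly covered members, the list's median was 0.02 beside -0.11 for all members.

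Members of the list that were not called spread from -0.06 to 0.33. Insig1, which holds SREBP in the endoplasmic reticulum, had 286 and 295 under ET-3 and 365 and 341 under NT (limma adjusted p = 0.0505), and Sc5d, a late enzyme of the pathway, had 182 and 181 against 221 and 235 (limma adjusted p = 0.0587). Srebf2, the gene of SREBP2, differed by 0.04 and Fasn, fatty acid synthase, by -0.03. Against DMSO the median of the 33 was -0.29 under ET-3 and -0.18 under NT.

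**Figure D4:**
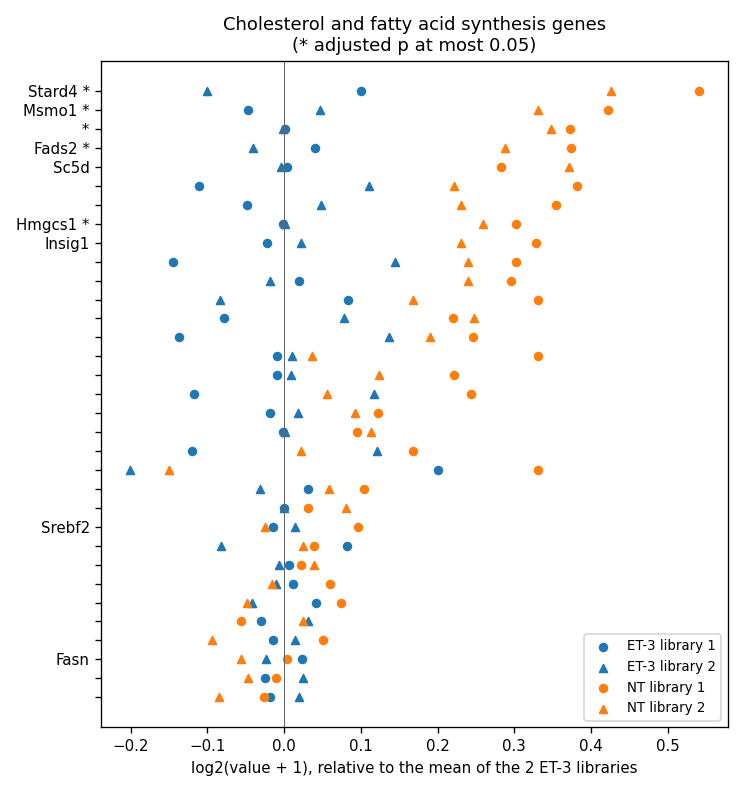
Values of the 33 cholesterol and fatty acid synthesis members in the 4 treated libraries (horizontal axis, log2(value + 1) relative to the ET-3 mean), ordered by the difference. Both NT libraries (orange) lie above both ET-3 libraries (blue) in 21 genes, and the asterisks mark the 5 called genes. Names are given for the genes described in the text.

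The promoter windows of called genes of this list are shown because they are the stretch through which SREBP2 and its partner NF-Y are known to act together. Windows of 250 bases before to 50 after the start were taken from RefSeq on GRCm38.p6 for 3 of the 5 called genes. Capitals mark CCAAT, the box bound by NF-Y, and TCACNCCAC, a form of the sterol regulatory element, searched on both strands. Hmgcs1 lies at chr13:119690101-119690400 on the plus strand, Msmo1 at chr8:64733529-64733828 on the minus strand and Fads2 at chr19:10101454-10101753 on the minus strand, each printed 5′ to 3′ along the gene.
Hmgcs1: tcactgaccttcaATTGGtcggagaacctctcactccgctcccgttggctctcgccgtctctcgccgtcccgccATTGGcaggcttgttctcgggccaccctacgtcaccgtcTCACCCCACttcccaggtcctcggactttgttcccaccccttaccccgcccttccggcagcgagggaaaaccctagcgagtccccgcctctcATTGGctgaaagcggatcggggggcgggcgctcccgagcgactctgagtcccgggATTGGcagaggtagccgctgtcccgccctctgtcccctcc
Msmo1: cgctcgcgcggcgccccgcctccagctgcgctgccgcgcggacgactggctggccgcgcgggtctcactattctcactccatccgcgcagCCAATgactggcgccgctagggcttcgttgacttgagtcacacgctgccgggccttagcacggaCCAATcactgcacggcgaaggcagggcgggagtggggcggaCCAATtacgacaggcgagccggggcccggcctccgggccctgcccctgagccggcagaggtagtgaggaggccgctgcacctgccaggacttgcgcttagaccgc
Fads2: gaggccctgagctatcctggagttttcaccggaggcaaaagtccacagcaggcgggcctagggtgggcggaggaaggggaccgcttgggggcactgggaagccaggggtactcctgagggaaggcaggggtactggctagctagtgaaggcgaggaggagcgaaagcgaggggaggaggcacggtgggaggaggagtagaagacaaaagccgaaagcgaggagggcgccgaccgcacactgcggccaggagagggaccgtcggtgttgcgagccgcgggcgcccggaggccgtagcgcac
The Hmgcs1 window holds 4 matches to the CCAAT box and 1 to the sterol element, the Msmo1 window 3 and 0, and the Fads2 window 0 and 0. Of all 32851 windows in the table, 37.4% hold the CCAAT box and 1.24% the sterol element. A match is a description of these letters and was not tested as a site. Of the 33 members of the list 23 have a window, too few for a count over the list.

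Timp3, an inhibitor of matrix proteases, and the collagens Col12a1, Col5a3 and Col5a1 gave the next group. Timp3 showed the largest difference of all members, with 39 and 59 under ET-3, 98 and 79 under NT and 579 and 510 in DMSO (chr10:86300372-86349506), a difference of 0.86 ± 0.18 with a 95% interval from 0.45 to 1.27, and of 0.57 to 1.15 when 1 treated library was left out. Col12a1 had 95 and 119 under ET-3, 193 and 146 under NT and 1618 and 1716 in DMSO, a difference of 0.65 ± 0.13. Both genes lay far below DMSO under either ligand, and less far under NT. Both also belong to the most thinly covered members, at 0.00929 and 0.00987 reads per base, and their trend-corrected differences were 0.72 and 0.51. Col5a3 had 98 and 111 under ET-3 and 163 and 133 under NT, and Col5a1 450 and 412 against 597 and 512.

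Over the extracellular matrix list as a whole the ligands differed less. Of 44 members of the list, 27 were higher under NT. In the list 4 were called higher and 2 lower, beside 0.823% and 2.84% of all members. Those called higher were Timp3, Col12a1, Col5a1 and Lama2, a laminin chain, and those called lower Serpinh1, a collagen chaperone, and Timp1. The list's median was 0.05, which turned to -0.08 with the scaling on thinly covered members. The called members differed in coverage in the manner of all members, since Serpinh1 and Timp1 had 0.549 and 0.470 reads per base. Their differences were -0.30 and -0.29, and 0.00 and -0.02 after correction for the trend.

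The other called members with the largest differences toward NT were of mixed function. Dchs1, a protocadherin of planar cell polarity, had 157 and 184 under ET-3, 255 and 237 under NT and 887 and 852 in DMSO, and Igdcc4, an immunoglobulin domain protein, 95 and 106, 156 and 137, and 810 and 841. Hivep3, a zinc finger protein, had 158 and 166, 220 and 238, and 83 and 73, and so was above DMSO under both ligands. Shld2, Slc16a3, a lactate exporter, Zfp41, Zfp113, Atp2b4, a calcium pump, Lcor, a nuclear receptor corepressor, Dgkh, a diacylglycerol kinase, and Tmem19 completed the 15 with differences of 0.45 to 0.56. The 15 called members with the largest differences toward NT lay at 0.0459 reads per base or less, and their trend-corrected differences ran from 0.32 to 0.72.

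Acta1, skeletal α-actin of the sarcomere, lay furthest below ET-3 under NT. Its values were 188 and 166 under ET-3, 119 and 103 under NT and 1370 and 1538 in DMSO (chr8:123891769-123894751), a difference of -0.67 ± 0.093 with an interval from -0.88 to -0.46. Trim54, a ubiquitin ligase of the sarcomere, had 160 and 151 under ET-3, 103 and 116 under NT and 436 and 448 in DMSO, a difference of -0.50 ± 0.087. Both genes were below DMSO under either ligand and lower again under NT. Their coverage was 0.0945 and 0.0943 reads per base, where the trend is near 0, and the trend-corrected differences were -0.67 and -0.51.

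Of 17 members of the myogenic differentiation list, 4 were called lower (Acta1, Myod1, Des and Chrna1) and 0 higher, beside 2.84% and 0.823% of all members, with a median of -0.10 and of -0.02 after correction for the trend. Ttn, the titin gene, had 1406 and 1696 under ET-3 and 1912 and 1592 under NT, and Ryr1, the calcium release channel, 290 and 327 against 338 and 349. Myog, the factor that starts differentiation, was below the limit of 50 and not a member, with 31 and 38 under ET-3, 31 and 28 under NT and 1157 and 1335 in DMSO. Its difference between the ligands was -0.21 (limma adjusted p = 0.432).

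Sdf2l1, a chaperone partner of the endoplasmic reticulum, was also low under NT, with 145 and 134 under ET-3, 84 and 99 under NT and 151 and 144 in DMSO, a difference of -0.61 ± 0.12 and of -0.59 after correction. ET-3 thus lay near DMSO and NT below it. Of 25 members of the list of ER chaperones and the unfolded protein response, 10 were called lower and 0 higher, beside 2.84% and 0.823% of all members. The list's median was -0.20 (-0.06 after correction). Hspa5, the main chaperone of that compartment, had 1655 and 1587 under ET-3 and 1330 and 1279 under NT, and Hsp90b1, Calr and Pdia3 differed by -0.34, -0.34 and -0.33. Without the trend these 4 differed by -0.09 to -0.11.

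Cytosolic ribosomal protein genes lay below ET-3 under NT. All 78 members of that list did so, and 18 were called lower and 0 higher, beside 2.84% and 0.823% of all members. The median was -0.26, with a range from -0.44 to -0.05. After correction for the trend all 78 remained below 0, with a median of -0.17, and 0 were called. That correction rests on merged exon length, which can exceed the transcript expressed, and other lengths were not tested. Both NT libraries lay below both ET-3 libraries in 74 of the 78, where 26.4% of all members did. Within the pairs of 1 treatment the median of the list, library 2 minus library 1, was 0.09 in DMSO, -0.08 in ET-3 and -0.08 in NT. The list also moved between libraries of the same treatment, and the part of the factors in the difference between the ligands was not tested. Rpl38 had 156 and 154 under ET-3 and 115 and 113 under NT, Rpl8 776 and 735 against 603 and 555, and Rps15 405 and 379 against 311 and 284, and Rpl4 and Rpl7 differed by -0.35 and -0.33. Many ribosomal protein genes have processed copies elsewhere in the genome, and reads shared with a copy may have been left out by the counting.

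Further lists of housekeeping genes held calls toward ET-3, each to be read beside the 2.84% of all members called lower. In translation factors and tRNA synthetases 19 of 43 members were called lower, among them Eef1a1 and Eif5a (-0.42 and -0.38), Eef1b2 and Sars (-0.33 and -0.27), and the median was -0.20 (-0.07 after correction). In heat shock proteins 13 of 27 were called lower, among them Hsp90ab1 (-0.38), Hspa9 (-0.32), Cct5 (-0.29) and Fkbp4 (-0.25), with a median of -0.24 (-0.08). The counts were 12 of 50 for splicing factors (among them Hnrnpab, Hnrnpm and Hnrnpk), 8 of 73 for the respiratory chain (Atp5a1, Atp5b, Cox4i1 and Cox6a1), 7 of 31 for NRF2 targets (Fth1, Prdx6, Hmox1 and Pgd), 7 of 30 for ATF4 targets (Phgdh, Atf4, Shmt2 and Psat1), 4 of 31 for the proteasome (Psmd2, Psmc2, Psmc1 and Psmd7) and 4 of 25 for glycolysis (Ldha, Aldoa, Pkm and Tpi1), in which 1 member, the lactate exporter Slc16a3, was called higher. Their medians, from -0.22 to -0.07, shrank to between -0.12 and -0.01 after correction. Mif, a cytokine with 278 and 249 under ET-3 and 194 and 184 under NT, Vim, Lgals3 and Actb, the cytoskeletal actin with 1736 and 1594 against 1283 and 1210, were the remaining genes among the 15 called members with the largest differences toward ET-3.

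**Figure D5:**
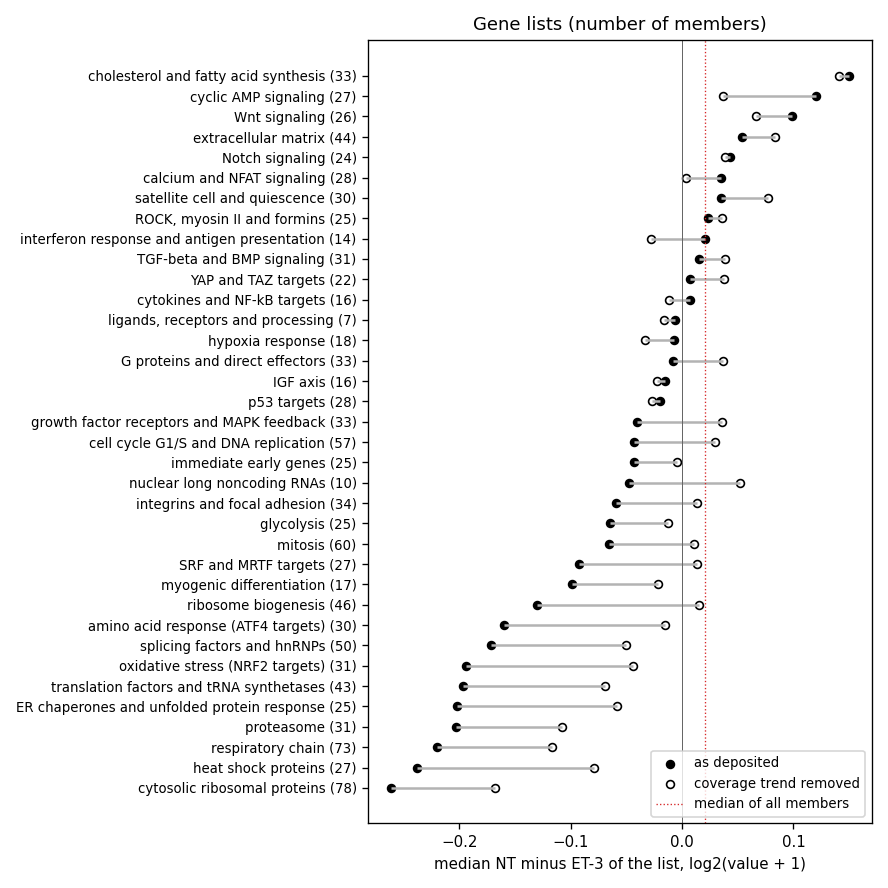
Median difference between NT and ET-3 of gene lists with at least 5 members (horizontal axis, log2(value + 1); number of members in brackets), as deposited (filled) and with the coverage trend removed (open). Cholesterol and fatty acid synthesis stays near 0.15 in both, cytosolic ribosomal proteins move from -0.26 to -0.17, and most other lists end near the median of all members (dotted).

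Genes of the ligands, their receptors and peptide processing showed 0 calls, whereas Rhoa, placed downstream of them by the study, was called lower under NT. Of 20 genes of ligands, receptors and peptide processing, 7 were members and 0 were called in limma, with or without voom weights, or had an unadjusted p under 0.05. Ednra, the other endothelin receptor, had 82 and 83 under ET-3, 112 and 84 under NT and 148 and 128 in DMSO, a difference of 0.23 with an interval from -0.11 to 0.57. Sort1, a sorting receptor that binds NT, had 101 and 139 against 135 and 130, with an interval from -0.12 to 0.44. The groups overlapped in Sort1, Furin, Ece1, Prep and Nln, 5 of the 7 members. Of all members, 30.4% had both NT libraries above both ET-3 libraries, 26.4% had both below, and the rest overlapped. The peptidases Ece1, Prep, Thop1 and Nln and the protease Furin differed by -0.08 to 0.01. Among ligand genes, Edn1 and Edn3 were below the limit, with means of 20.8 and 12.0, and Ednrb and the NT receptors were not analysed here.

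The differences of the G12, G13 and Gq family genes were small. Gna12 and Gna13, the genes of G12 and G13, differed by -0.04 and 0.03, Gnaq and Gna11 by 0.08 and -0.05, and each interval lay within 1.5-fold. In the list of G proteins and direct effectors 4 of 33 members were called lower (Gnas, Gnai2, Rgs16 and Gnb1) and 0 higher. Of all members 2.84% were called lower and 0.823% higher. Gnas, the gene of the stimulatory subunit, had 1736 and 1611 under ET-3, 1373 and 1297 under NT and 2302 and 2474 in DMSO, a difference of -0.33 ± 0.055, of which -0.27 was left after correction. Rhoa had 764 and 696 under ET-3, 604 and 587 under NT and 629 and 655 in DMSO, a difference of -0.29 ± 0.056 (limma adjusted p = 0.0389) and of -0.30 after correction at 0.0913 reads per base. Merged exons span 7494 bases in Rhoa and 11186 in Gnas, and coverage over the expressed transcripts alone was not tested. In both genes NT lay below ET-3 in every library, as it did in all 280 members called lower. The kinases Rock1 and Rock2 and the formin Diaph1 differed by 0.11, -0.01 and 0.09. Of 25 genes of ROCK, myosin II and formins 3 were called lower (Ppp1r14b, Cfl1 and Myh9), beside 2.84% of all members.

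Genes of the stem cell state and of the cell cycle showed mostly small differences between the ligands. Pax7 had 1754 and 1730 under ET-3, 1653 and 1599 under NT and 857 and 1070 in DMSO, a difference of -0.10 with an interval from -0.29 to 0.09. Myod1 was lower under NT, with 1539 and 1449 against 1192 and 1100 and with 1324 and 1444 in DMSO, a difference of -0.38 ± 0.059. It is the most densely covered of the genes named here, at 0.728 reads per base, and its trend-corrected difference was -0.02. Of 30 members of the satellite cell and quiescence list, 2 were called higher and 3 lower, beside 0.823% and 2.84% of all members. Those called higher were Col5a1 and Notch1, a receptor that maintains quiescence, with 312 and 283 against 365 and 360. Those called lower were Des, Cdkn1a and Itga7. The median of that list was 0.03, and -0.10 under the scaling on thinly covered genes.

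Mki67, a marker of cycling cells, had 2595 and 2678 under ET-3, 2688 and 2538 under NT and 1850 and 2002 in DMSO, a difference of -0.01 with an interval from -0.13 to 0.10. Of 60 mitosis genes, all members, 0 were called, and 59 had an interval within 1.5-fold. In that list 2 genes were higher and 17 lower under NT at an unadjusted p under 0.05 in limma, and limma with voom weights on the recovered reads called 2 lower. Of 57 genes of G1/S and DNA replication 4 were called lower (Rrm2, Ccnd1, Rpa1 and Cdk4), beside 2.84% of all members. Ccnd1, cyclin D1, had 2409 and 2197 under ET-3, 1930 and 1854 under NT and 964 and 926 in DMSO, and its difference of -0.28 was -0.01 after correction.

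The calls in signaling lists ran from 0 to 5 members, beside 0.823% of all members called higher and 2.84% called lower. The counts called higher and lower were 0 and 1 of 26 for Wnt signaling (Ctnnb1, β-catenin), 1 and 1 of 24 for Notch signaling (Notch1 and Hes6), 0 and 2 of 31 for TGF-β and BMP signaling (Id2 among them), 2 and 3 of 22 for YAP and TAZ targets (Arhgef17 and Ptpn14 higher, and Ankrd1 and Axl among the lower), 0 and 5 of 27 for SRF and MRTF targets (among them Actb, Flna, Tagln2 and Tpm4) and 0 of 25 in either direction for immediate early genes (5 lower at an unadjusted p under 0.05 in limma, and 0 with voom weights). The counts were 0 and 3 of 46 for ribosome biogenesis (Ncl, Npm1 and Mybbp1a), 0 and 5 of 34 for integrins and focal adhesion (among them Itgb1, Flna, Actn4 and Actn1), 0 and 3 of 28 for p53 targets (Cdkn1a, Plk2 and Gadd45a), 1 and 1 of 28 for calcium and NFAT signaling (Atp2b4 higher) and 0 and 1 for hypoxia (Vegfa, of 18), cytokines (Csf1, of 16), growth factor receptors (Axl, of 33), the IGF axis (Akt1, of 16), cyclic AMP signaling (Prkar1a, of 27) and nucleosome genes (H3f3b, of 3). In the interferon response and in nuclear long noncoding RNAs 0 of 14 and 0 of 10 were called in limma, with 1 gene and with 3 higher and 4 lower genes at an unadjusted p under 0.05, and voom weights gave 1 call in each. The median of cyclic AMP signaling was 0.12 (0.04 after correction) and that of Wnt signaling 0.10 (0.07), and both turned to below 0 (-0.01 and -0.04) with the scaling on thinly covered members. Of 234 KEGG terms of the deposited table with at least 15 members, the lowest medians were those of the ribosome (-0.22, 124 members, 6 of them higher under NT) and cardiac muscle contraction (-0.21, 38 members), and the highest those of the Fanconi anemia pathway (0.11, 49 members) and ovarian steroidogenesis (0.11, 19 members).

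Markers of other cell types were summed in each library. Of 12 macrophage markers 5 are in the table and 0 were members, with summed values of 78 and 59 under ET-3 and 66 and 60 under NT. Endothelial markers summed to 184 and 172 against 174 and 210, fibroadipogenic markers to 1660 and 1736 against 1745 and 1742, smooth muscle and pericyte markers to 1134 and 1181 against 1341 and 1241, and Schwann cell markers to 647 and 652 against 651 and 717. In the 4 treated libraries 1 macrophage and 1 fibroadipogenic marker were at 0 throughout. In DMSO the sums were 42 and 49 for macrophage, 377 and 320 for endothelial and 2373 and 2594 for fibroadipogenic markers. They were 4985 and 5622 for smooth muscle and pericyte markers and 161 and 182 for Schwann cell markers. The smooth muscle and pericyte sum was higher under NT than under ET-3 in both libraries, and its part in the collagen differences was not tested. Muscle stem cell markers, 9 of 12 of them members, summed to 9831 and 9582 under ET-3 and 8611 and 8251 under NT. Of these 9 members 3 were called lower, beside 2.84% of all members, with a median of -0.17 and of -0.02 after correction. In such bulk samples fewer cells of a type and less RNA per cell cannot be told apart.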

How the data were processed

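RNA-seq of MuSCs was used in 6 libraries, 2 each of DMSO, ET-3 and NT, grouped by their labels. The deposited table holds 1 whole number per gene and library. These scores, as deposited, were read counts that the authors had scaled and rounded, so count models were not used. Per the labels, libraries were made with a SMART-Seq kit, and the submitters' processing notes list Trimmomatic 0.38, STAR 2.7.7a, featureCounts 1.6.5, DESeq2 1.30.0 and mm10; the methods of the study name another kit and other versions, and state that reads on exons were counted without those that fell on several genes or regions. Any removal of duplicate reads is not given in the sources used here.

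Values were tested as log2(value + 1) with limma 3.58.1 in R 4.3.3 (lmFit, a contrast of NT minus ET-3, eBayes with trend), with all 6 libraries in 1 fit and Benjamini-Hochberg adjustment over the 13921 genes whose values averaged 5 or more. A fold change on this scale understates the change of low genes. Exonic lengths came from GENCODE M21 (GRCm38), and gene positions from the deposited table. Factors were estimated by likelihood from which whole numbers occur. The trend against reads per exonic base was a lowess of the difference between NT and ET-3 with a span of 0.3. On simulated data with 200 changed members, 6 of 50 genes changed 1.25-fold, 34 of 50 changed 1.5-fold and 50 of 50 changed 2-fold were called in the right direction for NT against ET-3 (13921 genes), with 7 false calls. The simulated libraries were independent and held no trend against coverage, so these false calls do not measure those in the data. Same-numbered libraries were checked for pairing, with correlations of their deviations of -0.09 to 0.04 between groups, and were not paired.

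The members and the gene lists were chosen with earlier results of these data known. Named genes are the 15 called members with the largest difference in each direction, up to 4 called members of each list by p, measured genes of the ligands and receptors, and 12 genes that the study centres on; a few further genes of the cholesterol and differentiation lists were named after their values were seen. Some genes that this rule names, and 1 gene list, are not reported here. Alternatives covered the filter, the scaling, the pseudocount, the groups in the fit, a replicate block, voom weights, the trend, averaged pairs and each library left out. The depth of each library sets counting error only.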

Additional observations from a re-analysis of the deposited data

Results flagged for a closer look

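In limma, 14 members differed from DMSO at an adjusted p of 0.05 or less in opposite directions under the ligands, each above DMSO under ET-3 and below it under NT, and each also called in NT against ET-3. They included Hnrnpm, Myh9, Hsp90ab1, Hsp90b1, Ybx3, Rpl4, Actb, Hspa9, Hspa5, Anxa2, Eef1b2 and Rpl8. The comparisons with DMSO share its 2 libraries. Myh9, non-muscle myosin heavy chain, had 4061 and 4249 in DMSO, 4696 and 4436 under ET-3 and 3833 and 3730 under NT. Their coverage ran from 0.167 to 0.701 reads per exonic base, beside a median of 0.0704 over all members. The DMSO factors were 0.983 and 1.15, above both of NT and overlapping those of ET-3 (1.09 and 1.19), and the part of the factors in these 14 members was not tested.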

How the results depend on the processing

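At any p, 0 members differed by 2-fold in 18 of the 20 alternatives, and 1 did without ET-3 replicate 2 and 1 without NT replicate 2 (Timp3 in both). Members past 1.5-fold at any p numbered 4 to 59, the 59 without ET-3 replicate 2, beside 12 as reported. Of the called members, 4 passed 1.5-fold. Members with an interval within 2-fold numbered 9030 to 9838 over the alternatives, with 9680 to 9792 when 1 library was left out. The count of called members (361, of which 81 higher and 280 lower under NT) did not hold. It was 0 in each direction with no filter on low values, with the 4 treated libraries only, with the coverage trend removed, with each treated pair averaged, and without any 1 of the 6 libraries (range 0 to 0). It was 599 (161 higher and 438 lower) with a mean of at least 10, 918 (299 and 619) with members only, 545 (453 lower) with upper quartile scaling, 175 (38 and 137) with a pseudocount of 0.5, 880 (237 and 643) with voom weights, 1801 (27 and 1774) with the scaling on thinly covered members, and 2409 at an unadjusted p under 0.05. Scaling to the library total gave 156 higher, and a pseudocount of 5 gave 136 higher. No low-value filter and fewer libraries leave more genes to adjust over or fewer degrees of freedom; the cause of the other changes was not tested.

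The fit with the replicate number as a block (replicate block) called 0 members in either direction, with 2295 at an unadjusted p under 0.05; the labels give no more than a shared number.

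With the coverage trend removed, the difference changed sign in Actn1 (0.0092), Ankrd1 (0.0098), Axl (0.036), Chrna1 (0.0022), Csf1 (0.016), Ece1 (-0.038), Fasn (0.14), Flna (0.049), Gna11 (0.047), Gna12 (0.041), Itgb1 (0.0049), Mki67 (0.16), Mybbp1a (0.025), Pax7 (0.092), Rock2 (0.019), Serpinh1 (0.0035) and Tpm4 (0.014). With the scaling on thinly covered members it did so in Diaph1 (-0.047), Ece1 (-0.13), Gna13 (-0.10), Gnaq (-0.053), Rock1 (-0.029) and Srebf2 (-0.099). Scaled to the library total, it did so in Mki67 (0.011), Nln (0.017) and Rock2 (0.013). With upper quartile scaling the sign changed in Ece1 (-0.0087). With median ratio scaling the same gene was at -0.00053. With 1 library left out, the sign changed in Ece1 (-0.025 to 0.043), Fasn (-0.056 to 0.0033), Furin (-0.15 to 0.0036), Gna11 (-0.10 to 0.0095), Gna12 (-0.15 to 0.059), Gna13 (-0.010 to 0.080), Gnaq (-0.024 to 0.19), Mki67 (-0.055 to 0.028), Nln (-0.042 to 0.029), Rock2 (-0.027 to 0.0041), Sort1 (-0.069 to 0.39) and Srebf2 (-0.025 to 0.097). The largest original difference among these genes was -0.30, in Serpinh1.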
